A study of Mus musculus with 8 samples.

Results

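The genes described here are those of the cytosolic ribosomal proteins, read from RNA sequencing counts of mouse embryonic fibroblasts. Members were the rows of the count table whose symbol begins with Rpl or Rps and a digit, together with Rplp0, Rplp1, Rplp2 and Rpsa. Ribosomal S6 kinases (8 rows) and rows named as pseudogenes (4 rows) were left out. This gave 83 of 12211 rows, 49 with an Rpl name and 34 with an Rps name, and all 83 had enough counts to be among the 11909 genes tested. The rule worked on names only. It took in 5 paralogues (Rpl7l1, Rpl22l1, Rpl36al, Rps27l and Rps27rt) and Rps19bp1, a regulator of the deacetylase SIRT1 that is not a ribosomal protein, and left 77 standard ribosomal protein genes. The listed paralogues Rpl3l, Rpl10l, Rpl39l and Rps4l were not analysed here.

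The study compared 4 PUS10KO libraries with 4 control libraries, which carry the genotype label WT, numbered 1 to 4 in each group. PUS10 converts uridine to pseudouridine in RNA. All cells were grown in the same medium with serum, and total RNA was sequenced. The labels do not say how the gene was disrupted, whether the libraries came from separate embryos or clones, or what a number stands for, so that p-values measure the spread between these libraries, which may be technical. Levels are given as CPM, the gene's counts relative to the library total scaled by TMM, a normalization that assumes most genes do not change. A gene is called changed where its adjusted p in edgeR's quasi-likelihood test is under 0.05.

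Each ribosome is built from ribosomal RNA and a single copy of most of these proteins, so the genes of both subunits are usually transcribed at high and matched levels in growing cells. Their mRNAs are the main class with a terminal oligopyrimidine tract, a C at the first base followed by a run of C and T, through which mTORC1 and the RNA-binding protein LARP1 control their translation and stability. Free ribosomal proteins of the complex around the 5S RNA can bind Mdm2, the ligase that keeps p53 low.

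Annotated transcription starts showed this tract in part of the set. RefSeq promoter entries (GRCm38.p6) were matched for 63 of the 83 members. A C at the annotated first base with at least 4 more pyrimidines after it stood in 13 of 63 members (20.6%). Over all genes it stood in 673 of 27025 promoters (2.49%). Such a run can be part of a tract that begins upstream of that base. Within 10 bases of that base on either side, a tract of at least 5 began in 34 members (54%), against 30.8% of all promoters, and one of at least 8 in 21 members (33.3%), against 8.03%. The members shown are those most and least like the rest of the set across libraries, the called or separated genes with an entry, the partners of Rplp1, and the longest tract. Each line gives 30 bases, 10 before the annotated first base and 20 from it. Capitals mark the first tract of at least 5 that begins within 10 bases of that base, and later tracts are not marked.
Rpl12 (chr2:32961702-32961731, plus strand): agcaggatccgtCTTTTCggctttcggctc
Rpl22l1 (chr3:28805498-28805527, plus strand): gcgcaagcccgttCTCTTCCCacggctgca
Rps23 (chr13:90923112-90923141, plus strand): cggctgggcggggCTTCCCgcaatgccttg
Rpl27a (chr7:109519185-109519214, plus strand): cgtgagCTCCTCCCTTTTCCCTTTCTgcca
Rps7 (chr12:28635934-28635963, minus strand): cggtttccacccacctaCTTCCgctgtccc
Rps12 (chr10:23787190-23787219, minus strand): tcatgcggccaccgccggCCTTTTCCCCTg
Rps15 (chr10:80292421-80292450, plus strand): cagagctcgcgataactgcgcaagcgcagc
Rplp2 (chr7:141447641-141447670, plus strand): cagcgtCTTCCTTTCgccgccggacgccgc
Rplp0 (chr5:115559457-115559486, plus strand): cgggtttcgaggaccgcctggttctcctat
Rps10 (chr17:27635225-27635254, minus strand): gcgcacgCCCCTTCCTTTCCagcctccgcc
Rps16 (chr7:28350679-28350708, plus strand): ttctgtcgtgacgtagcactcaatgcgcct
Rpl7l1 (chr17:46782637-46782666, minus strand): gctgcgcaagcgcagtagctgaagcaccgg
Rps19bp1 (chr15:80264287-80264316, minus strand): cggaagtagctcgccgcgtgtgggcggggc
Rpl36al (chr12:69184048-69184077, minus strand): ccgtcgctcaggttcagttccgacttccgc

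An annotated first base need not be the base these cells used. A missing tract therefore says only that none began within 10 bases of the annotated one. Rplp0 and Rpl36al, for example, have a run of 5 further downstream in the stretch shown. Searched on both strands of the 300 bases around the start, CCGGAAG, the core of ETS family motifs, stood in 24 of 63 members (38.1%), against 9.12% of all promoters. GGGCGG, bound by Sp1, stood in 61.9% of the members and 35.9% of all promoters. AAGATGGCG, the core of the YY1 motif, stood in 6.35%, against 1.49%, and CACGTG, the E-box bound by MYC, in 7.94%, against 7.24%. Such matches are descriptions of the letters and show no binding.

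Most ribosomal protein mRNAs had overlapping levels in the genotypes, and 4 were lower in PUS10KO. Of 83 members 0 were called higher and 4 lower in PUS10KO (4.82%), where 13.0% of all 11909 genes were called, 5.90% higher and 7.11% lower. The 4 were Rpl29, Rplp1, Rps29 and Rps7, and DESeq2 and limma voom called the same 4 and no others. Another 4 had an unadjusted p under 0.05, all lower in PUS10KO, namely Rps12, Rps15, Rpl31 and Rpl41. With the called ones, 8 of 83 members had such a p in edgeR, where 3115 of all 11909 genes did. In 6 members the PUS10KO values lay wholly below the control values, the 4 called ones with Rps12 and Rps15, and in 0 wholly above. Over all genes 10.6% lay wholly below and 9.70% wholly above, 20.3% in either direction.

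The median log2 fold change was -0.013 over the members and 0.009 over all genes. Scaled by library totals alone, these medians were 0.089 and 0.116, and 2 members were called, Rpl29 and Rplp1. Leaving out any 1 library left 2 to 4 called members, never another gene than these 4. Fold changes were also tighter than those of the table as a whole. They were between -0.25 and 0.25 on the log2 scale in 64 members (77.1%) and in 48.8% of all genes, with an interquartile range of 0.336 in the members and 0.52 in all genes. Mitochondrial ribosomal proteins were about as tight, with 71.8% in that range and an interquartile range of 0.324. No genes matched for level were compared. The large subunit (49 members, median -0.006, 2 called lower) and the small subunit (34 members, median -0.039, 2 called lower) gave like values. The median SE of a member was 0.172, and changes several times that size could go uncalled. The smallest called change was -0.65 (Rps7), while Rps12 at -0.53 and Rps16 at 0.51 were not called.

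**Figure D1:**
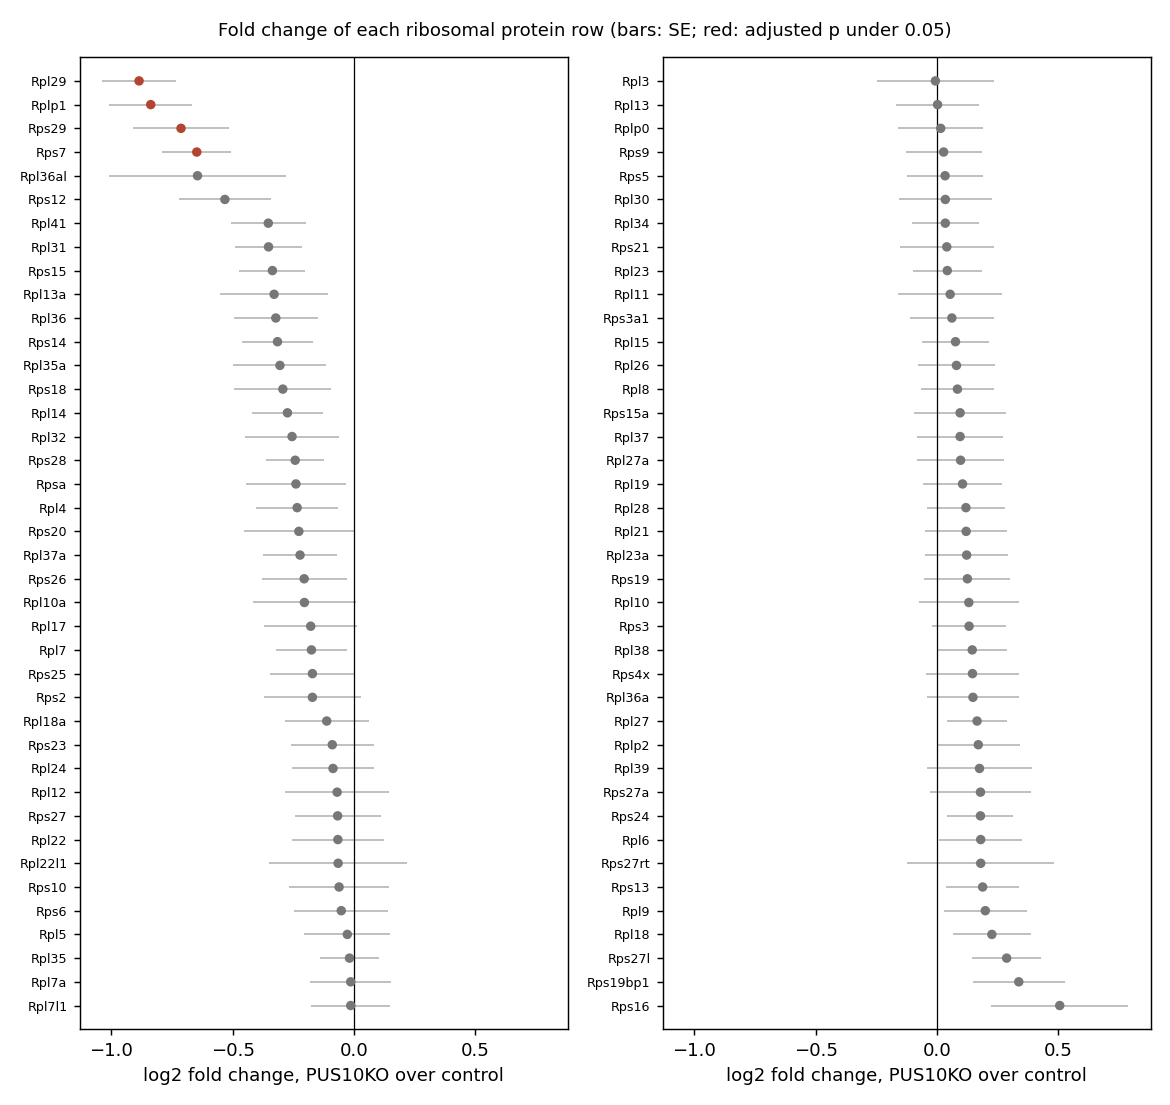
Log2 fold change of PUS10KO over control for 80 of the 83 members, ordered from lowest to highest in 2 columns, with the SE as a bar and called members in red. Most points lie within 0.25 of 0, and the 4 red points lie at the low end, from -0.89 to -0.65.

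The 83 members took 3.67%, 4.56%, 5.38% and 5.50% of all counts in PUS10KO libraries 1 to 4, against 3.46%, 4.15%, 5.32% and 5.76% in control libraries 1 to 4. Ranges overlapped almost wholly, with 4.78% ± 0.85 in PUS10KO and 4.67% ± 1.06 in control (SD, n = 4 each), a ratio of 1.02. Against the TMM-scaled total the ratio was 0.954. Counts of large over small subunit members stood at 1.41 ± 0.0247 in PUS10KO and 1.41 ± 0.0194 in control, and between 1.387 and 1.44 in all 8 libraries. In bulk RNA, fewer cells of a type and less RNA per cell cannot be told apart.

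Pus10 itself had 13.8 ± 1.60 CPM in PUS10KO and 46.1 ± 6.46 CPM in control (n = 4 each; edgeR log2 fold change -1.74, adjusted p = 0.000189), in the direction its label gives. Total counts ran from 17561114 to 24563499. All 12 listed fibroblast markers were in the table, and their summed level was 11500 to 17100 CPM in PUS10KO and 18300 to 22900 CPM in control. Muscle markers (5 of 8 in the table) summed to 2560 to 3540 CPM in PUS10KO and 6580 to 19700 CPM in control. Neural and glial markers (4 of 8) summed to 66.9 to 95.2 CPM in PUS10KO and 166 to 240 CPM in control, and epithelial markers (1 of 9, Krt19) to 11.5 to 20.7 CPM in PUS10KO and 73 to 221 CPM in control. Leukocyte markers (4 of 8) summed to 13.8 to 20.2 CPM in PUS10KO and 7.55 to 12.4 CPM in control, and endothelial markers (2 of 7) to 1.19 to 3.12 CPM in PUS10KO and 2.52 to 4.92 CPM in control. Such sums can rest on single genes. Of the 12 fibroblast markers, 3 had a positive and 9 a negative log2 fold change, and 4 were called lower (33.3%, where 7.11% of all genes were). The lowest of the 12 was at -9.53, a marker nearly absent in PUS10KO. Of the 4 leukocyte markers, Cd14 had a positive log2 fold change (2.05) and 3 had a negative one. Of the 4 neural and glial markers, 2 were positive and 2 negative, with Nes at -1.98. Defining markers such as Epcam, Cdh1, Ptprc, Pecam1, Cdh5, Myod1 and Sox10 had no row to analyse here. The part of these differences in the ribosomal protein values was not tested. The Y-linked Eif2s3y was at 70.0 ± 3.22 CPM in PUS10KO and at 0 in all control libraries, so that sex chromosome content and genotype cannot be told apart.

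Rpl29 encodes a small basic protein of the large subunit (ENSMUSG00000048758.14, chromosome 9, 106429454 to 106431568, plus strand, GRCm38). It had 74.4, 97.8, 103.8 and 110.0 CPM in PUS10KO libraries 1 to 4, against 150.3, 178.3, 186.9 and 197.8 CPM in control libraries 1 to 4. Every PUS10KO library lay below every control library, and the numbers ranked alike in both genotypes. The log2 fold change of Rpl29 was -0.89 (SE 0.152, adjusted p = 0.00552), the lowest of the 83, and the call held when any library was left out (adjusted p at most 0.0205).

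Rplp1 encodes an acidic protein of the P stalk, the arm of the large subunit that recruits elongation factors (ENSMUSG00000007892.8, chromosome 9, 61913284 to 61914542, minus strand). It had 733, 897, 951 and 1089 CPM in PUS10KO libraries 1 to 4, against 1352, 1502, 1824 and 1885 CPM in control libraries 1 to 4. The groups did not overlap, and as for Rpl29 the numbers ranked alike in both genotypes. Its log2 fold change was -0.84 (SE 0.171, adjusted p = 0.0124), and all 8 fits without 1 library kept the call (adjusted p at most 0.0425).

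Rps7, of the body of the small subunit, lies on chromosome 12 (ENSMUSG00000061477.4, 28630854 to 28635953, minus strand) and is among the genes mutated in Diamond-Blackfan anaemia in human. Its levels were 272, 298, 340 and 349 CPM in PUS10KO libraries 1 to 4, against 417, 467, 536 and 554 CPM in control libraries 1 to 4. The difference was nearly the same within each number, -0.62, -0.65, -0.66 and -0.67 on the log2 scale. Rps7 fell by 0.65 on the log2 scale (SE 0.142, adjusted p = 0.0173). The call was lost without PUS10KO 2 (adjusted p = 0.0526), without control 3 (0.0568) and with library totals as the only scaling (0.0779).

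Rps29, a zinc-binding protein of the head of the small subunit and also a Diamond-Blackfan gene in human, lies on chromosome 12 too (ENSMUSG00000034892.8, 69157722 to 69159186, minus strand). It had 39.7, 71.6, 70.4 and 76.4 CPM in PUS10KO libraries 1 to 4, against 95.0, 109.4, 105.5 and 113.2 CPM in control libraries 1 to 4. PUS10KO 1 stood far below the other 3 PUS10KO libraries, and the groups did not overlap. The log2 fold change of -0.71 (SE 0.199, adjusted p = 0.0474) was close to the threshold. It was -0.54 (adjusted p = 0.0268) without PUS10KO 1, while each of the other 7 fits without 1 library lost the call, with adjusted p up to 0.102. No annotated gene overlaps any of these 4 genes, but each has annotated pseudogenes named after it (Rpl29 3, Rps7 2, Rplp1 1 and Rps29 1).

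**Figure D2:**
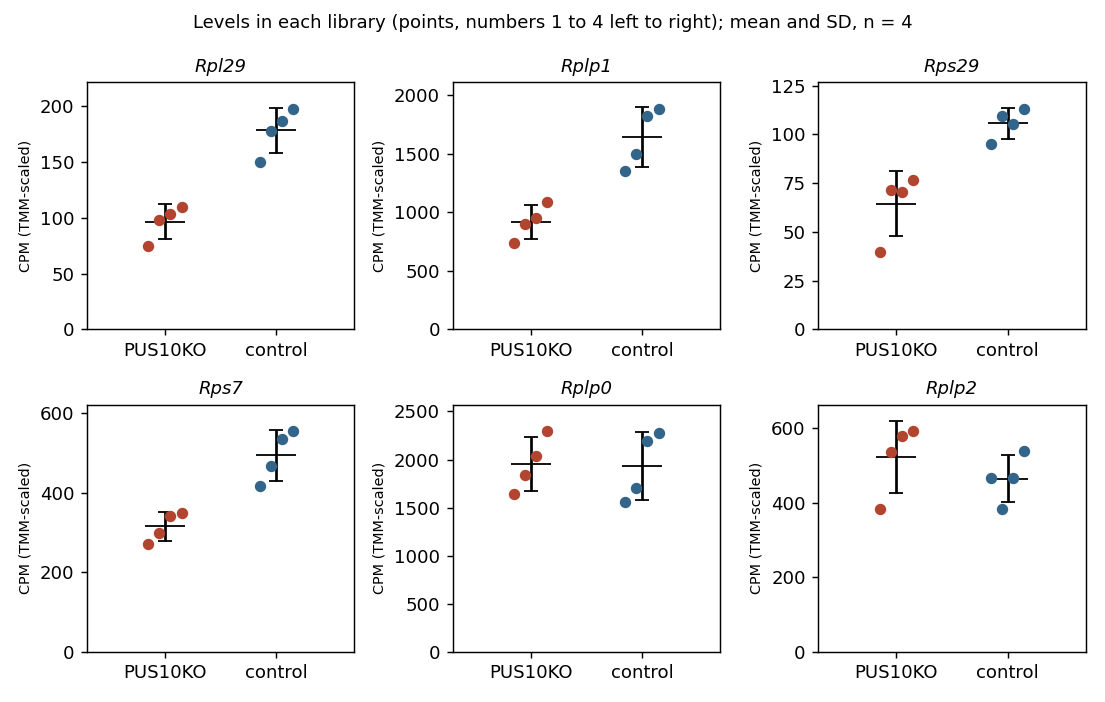
TMM-scaled CPM of the 4 called members and of Rplp0 and Rplp2 in each library, with points for PUS10KO (red, left) and control (blue, right) libraries 1 to 4 from left to right, and the mean and SD (n = 4). In the called members the genotypes do not overlap, while in Rplp0 and Rplp2 they do.

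The remaining genes at the low end were less clearly separated. Rps12, of the head of the small subunit, had 405, 582, 653 and 667 CPM in PUS10KO libraries 1 to 4, against 743, 720, 859 and 1011 CPM in control libraries 1 to 4 (log2 fold change -0.53, SE 0.190, adjusted p = 0.110). Rps15, which lies near the decoding site, had 445, 490, 579 and 574 CPM in PUS10KO, against 580, 651, 720 and 685 CPM in control (-0.34, SE 0.136, adjusted p = 0.153). In both genes the groups just failed to overlap. Rps12 has 23 annotated pseudogenes named after it, and Rpl31, a protein at the rim of the exit tunnel, has 24 (log2 fold change -0.35, adjusted p = 0.146). Over all members 60 have such pseudogenes, 292 in total, so that reads shared with near-identical copies make these counts uncertain.

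At the high end no member was called. Rps16, a protein of the small subunit head, had 144, 203, 217 and 167 CPM in PUS10KO libraries 1 to 4, against 130, 179, 141 and 64.7 CPM in control libraries 1 to 4 (log2 fold change 0.51, SE 0.283, adjusted p = 0.298). The groups overlapped, and most of the difference lay in number 4. Rps19bp1 followed with 55.0 ± 11.9 CPM in PUS10KO and 43.5 ± 7.58 CPM in control (n = 4 each; log2 fold change 0.34, edgeR adjusted p = 0.299). Rps27l and Rpl18 came next, and 40 members in all had a positive and 43 a negative log2 fold change.

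Comparing libraries of the same number moved these counts. With the number as a replicate block, 4 members were called higher (Rps16, Rps19bp1, Rps27l and Rpl18) and 18 lower in PUS10KO, 26.5% of the set, where 39.0% of all genes were called, 19.1% higher and 19.9% lower. The block adjusted p was 0.0405 for Rps16, 0.0118 for Rps19bp1, 0.0248 for Rps27l and 0.0461 for Rpl18. Among the 18 were the 4 genes called without the block, then Rps12 (0.00441), Rpl31 (0.00639), Rps15 (0.00776), Rpl41 (0.00794) and Rps14 (0.00993). In all 4 numbers 24 members were lower and 19 higher in PUS10KO, where 26.9% of all genes were lower and 28.4% higher.

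Within the P stalk, the fall was seen in Rplp1 and not detected in its partners. Rplp0, the base that anchors the stalk, had 1639, 1842, 2040 and 2295 CPM in PUS10KO, against 1559, 1702, 2190 and 2278 CPM in control (log2 fold change 0.02, SE 0.175, adjusted p = 0.969). Rplp2, which pairs with Rplp1, had 383, 537, 579 and 592 CPM in PUS10KO, against 466, 384, 467 and 540 CPM in control (0.17, SE 0.172, adjusted p = 0.584). In both the groups overlapped. Rpl12, which sits beside the base of the stalk, had 1001 ± 225 CPM in PUS10KO and 1050 ± 232 CPM in control (n = 4 each; log2 fold change -0.07, edgeR adjusted p = 0.88).

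Ratios of counts within a library do not depend on scaling, and they are not corrected for length. The ratio of Rplp1 to Rplp0 was 0.447, 0.487, 0.466 and 0.475 in PUS10KO libraries 1 to 4, against 0.867, 0.882, 0.833 and 0.827 in control libraries 1 to 4. It averaged 0.469 ± 0.0167 in PUS10KO and 0.852 ± 0.0266 in control (SD, n = 4 each), a gap many times the spread. Rplp1 to Rplp2 gave 1.77 ± 0.131 in PUS10KO and 3.55 ± 0.475 in control, again with no overlap. Rplp2 to Rplp0 gave 0.267 ± 0.0264 in PUS10KO and 0.244 ± 0.038 in control, and these overlapped.

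**Figure D3:**
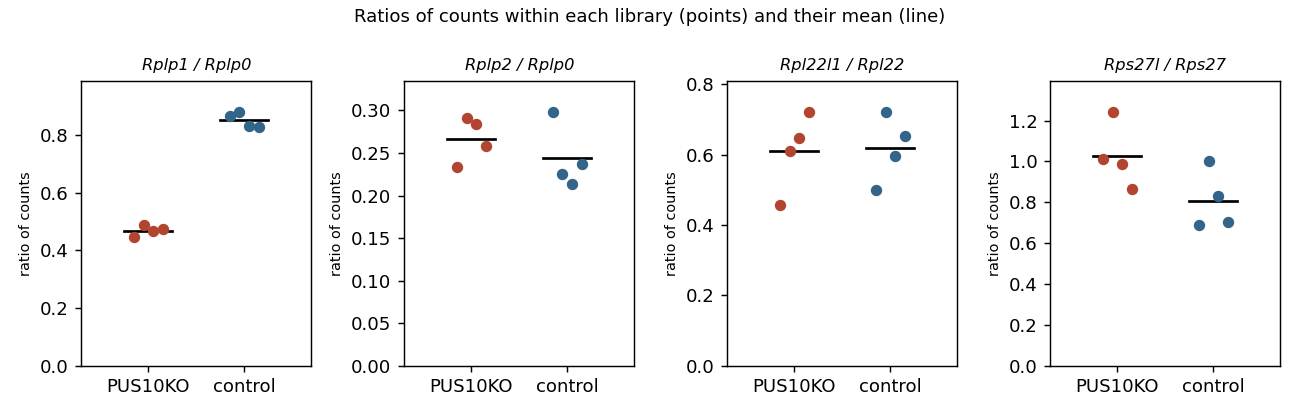
Ratio of counts within each library (points, libraries 1 to 4 from left to right) and the mean (line) for 2 pairs of the P stalk and 2 paralogue pairs, PUS10KO in red on the left and control in blue on the right. Only Rplp1 over Rplp0 parts the genotypes among the 4 pairs drawn, at 0.469 and 0.852 on average.

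The other structural groups held few calls. Of the 5S RNP and the Mdm2-binding members, Rpl5 had a log2 fold change of -0.03 (SE 0.177), Rpl11 of 0.055 (SE 0.214) and Rpl23 of 0.04 (SE 0.143). None of the 3 was called by edgeR, DESeq2 or limma voom, and 0 had an unadjusted p under 0.05. The 8 members of the peptide exit tunnel ran from -0.35 to 0.18 with a median of 0.032, with 0 called by edgeR, DESeq2 or limma voom and 1, Rpl31, at an unadjusted p under 0.05. The 3 around the peptidyl transferase centre, Rpl3, Rpl8 and Rpl10, ran from -0.006 to 0.13.

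On the small subunit, the 13 head proteins had a median of -0.17 and 1 called member, Rps29 (7.69%, where 13.0% of all genes were called). The 4 proteins of the mRNA exit site had a median of -0.22, with 0 called by edgeR, DESeq2 or limma voom and 0 at an unadjusted p under 0.05, and the block called 2, where it called 39.0% of all genes. Among them, Rps14 had -0.31 (adjusted p = 0.216) and Rps28 -0.24 (adjusted p = 0.241). The 5 proteins at the decoding site and mRNA entry ran from -0.34 to 0.13. Of 20 listed genes mutated in Diamond-Blackfan anaemia in human, 2 were called, Rps7 and Rps29 (10%, under the 13.0% of all genes), and the median was -0.022.

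Ratios of the paralogues to their standard genes overlapped between the genotypes. Rps27l, which in human is a p53 target, had 341 ± 49.1 CPM in PUS10KO and 279 ± 28.6 CPM in control (log2 fold change 0.29, edgeR adjusted p = 0.245), and its count ratio to Rps27 was 1.03 ± 0.158 in PUS10KO and 0.806 ± 0.145 in control. Rpl22l1 to Rpl22 gave 0.609 ± 0.112 in PUS10KO and 0.618 ± 0.0932 in control, and Rpl7l1 to Rpl7 gave 0.174 ± 0.0495 in PUS10KO and 0.155 ± 0.0344 in control. Rps27rt, a copy of Rps27, reached 0.0266 ± 0.00528 of its counts in PUS10KO and 0.0227 ± 0.00352 in control. The standard genes Rps27, Rpl22, Rpl7 and Rpl36a had log2 fold changes of -0.07, -0.07, -0.18 and 0.15, none called.

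Rpl36al was the paralogue with the lowest fold change. It had 2.37, 1.63, 0.68 and 1.41 CPM in PUS10KO libraries 1 to 4, against 2.87, 2.19, 2.16 and 2.25 CPM in control libraries 1 to 4 (log2 fold change -0.65, SE 0.365, edgeR adjusted p = 0.304). The groups overlapped, and the gene shares its strand with an overlapping annotated gene. Its count ratio to Rpl36a was 0.008 ± 0.00528 in PUS10KO and 0.0131 ± 0.00453 in control.

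Levels per length spread widely inside the set, and annotated lengths shape the order. Rpl22, for example, has an annotated length of 2048 bases and 384 coding bases. With 260 CPM in PUS10KO and 272 CPM in control, it ranked 75 of 83 by level per length. Per kilobase of the annotated transcript, and averaged over the 8 libraries, Rpl8, of the surroundings of the peptidyl transferase centre, was highest at 2819 CPM per kb. Rplp1 followed with 2563, Rpl32 with 2218, Rps2, at the mRNA entry, with 1816, and Rpl26, at the exit tunnel, with 1469 CPM per kb. By genotype, Rplp1 stood at 1839 CPM per kb in PUS10KO and 3287 CPM per kb in control, on either side of Rpl8, which stood at 2902 in PUS10KO and 2736 in control. The top 5 made up 18.6% of the summed levels, and 77 of 83 members exceeded 100 CPM per kb.

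The lowest were Rpl36al at 3.70, Rps10 at 6.76, Rps27rt at 23.0, Rpl13a at 37.0 and Rps19bp1 at 58.8 CPM per kb. The highest level was 763 times the lowest. Rps10 is a standard protein of the small subunit and Rpl13a one of the large subunit, yet both sat among paralogues here. Rps10 overlaps an annotated read-through gene on its own strand, and Rpl13a overlaps a coding gene and several small nucleolar RNA genes. Their counts are therefore uncertain. Rps10 had 5.87 ± 0.569 CPM in PUS10KO and 6.13 ± 1.30 CPM in control (log2 fold change -0.06, edgeR adjusted p = 0.893).

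The strongest pattern inside the set ran across library numbers and not across genotypes. Of the variance of a member's log2 CPM over the 8 libraries, a median of 81.5% went with the number and 8.24% with the genotype, where the medians over all genes were 58% and 22.1%. The number took the larger part in 74 of 83 members (89.2%), and in 68.2% of all genes. The number has more levels than the genotype, so it takes a larger share even where neither has an effect. These shares are therefore to be read against those of all genes. Members were higher in both libraries 3 and 4 than in both 1 and 2, in each genotype, in 70 of 83 cases (84.3%), against 22.9% of all genes. The median member was higher in numbers 3 and 4 by 0.356 on the log2 scale in PUS10KO and by 0.348 in control, while the median of all genes moved by 0.021 in PUS10KO and 0.012 in control.

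**Figure D4:**
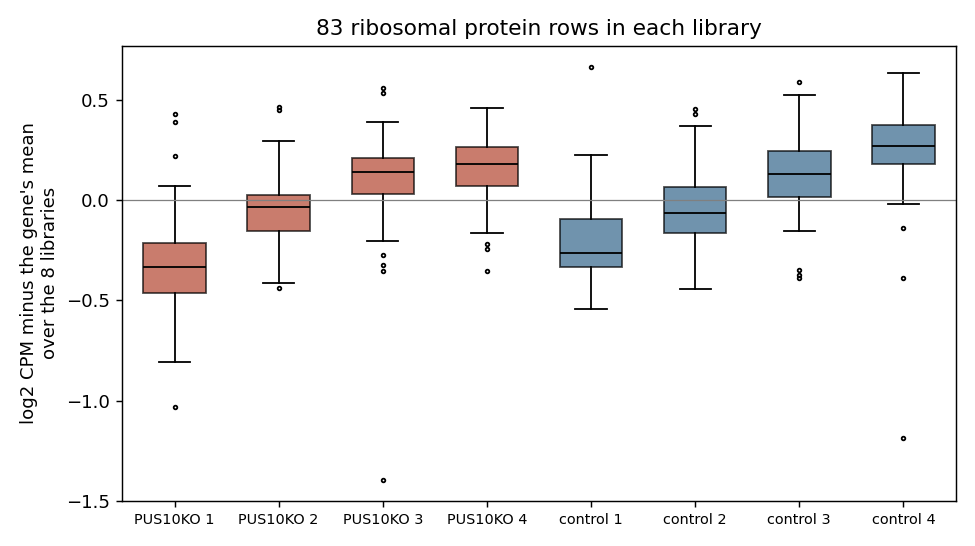
Log2 CPM of the 83 members in each library, each less its own mean over the 8 libraries, as boxes (median and quartiles, with whiskers and points for the rest). Boxes stand higher for numbers 3 and 4 than for 1 and 2 in PUS10KO (red, left) and in control (blue, right), with no shift between the genotypes of that size.

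The genes tracked each other closely. A member's log2 CPM correlated with the mean of the other members over the 8 libraries with a median r of 0.875, and with r over 0.8 in 55 members (66.3%), against 6.76% of the other genes tested against the members' mean. All these points share library, depth and scaling. Rpl12 (r = 0.992) and Rpl22l1 (0.983) were among the closest to the rest. Negative values belonged to Rps19bp1 (-0.787), Rpl7l1 (-0.708), Rps10 (-0.477), Rpl36al (-0.428) and Rps16 (-0.310), so that 3 of the 5 are paralogues or not a ribosomal protein. In Rpl7l1, related to a yeast assembly factor, the level was 221, 223, 157 and 163 CPM in PUS10KO libraries 1 to 4, against 194, 228, 176 and 172 CPM in control libraries 1 to 4, with numbers 1 and 2 on top in both genotypes. A pyrimidine tract of at least 5 beginning within 10 bases of the annotated start did not sort the members by this measure. The median r was 0.845 in the 34 with such a tract and 0.877 in the 29 without.

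Outside the set, the 5 genes most like the members' mean over the 8 libraries were Mrpl54 (r = 0.9886), Txndc12 (0.9885), Csdc2 (0.9873), Hexim2 (0.9872) and Itgb3bp (0.9812). Mrpl54, a protein of the mitochondrial ribosome, had 47.5, 61.3, 69.4 and 76.3 CPM in PUS10KO libraries 1 to 4, against 52.2, 66.5, 74.0 and 88.0 CPM in control libraries 1 to 4. None of the 5 was called, and Csdc2 reached at most 1.63 CPM in any library.

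Fold changes of the members followed the chromosome on which they lie. Over the 83 members, the log2 fold change correlated with the median of the other tested genes on the same chromosome with Pearson r = 0.776 and Spearman rho = 0.737, a description across genes that share libraries. Over the 79 members not called, r was 0.773. The same r was 0.62 for 78 mitochondrial ribosomal proteins. It was 0.265 for all 11813 tested genes outside the set with a known chromosome, the mitochondrial ribosomal proteins included. Unlike the members, these genes also count in their own chromosome's median. Those 11813 genes spread far more, with an SD of 0.995, which lowers r. The fold change had the sign of its chromosome's median in 79.5% of the members, 82.1% of the mitochondrial ribosomal proteins and 67.6% of the 11813 genes. When the chromosome's median was subtracted, the SD of the members' log2 fold changes was 0.163, against 0.257 before, and the median size was 0.079, against 0.149. Medians of members and of other genes, taken per chromosome over the 19 that hold members, had r = 0.967 and rho = 0.879.

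Chromosome 12 lay at the low end. Its 3 members, Rps7, Rps29 and Rpl36al, had a median log2 fold change of -0.65, and its 402 other genes one of -0.60. On chromosome 10, Rps12, Rps15, Rpl41 and Rps26 had a median of -0.35, against -0.25 for the other genes. At the high end, 14 members on chromosome 7 had a median of 0.123 and 7 on chromosome 11 one of 0.123, where the other genes stood at 0.15 and 0.16. The 4 X-linked members, Rpl10, Rps4x, Rpl36a and Rpl39, lay between 0.13 and 0.18, and the other X-linked genes had a median of 0.197. Within numbers 1 to 4 the chromosome 12 members had median differences of -0.62, -0.61, -0.66 and -0.67, and its other genes -0.59, -0.64, -0.58 and -0.62. The r over members within the numbers was between 0.652 and 0.745.

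**Figure D5:**
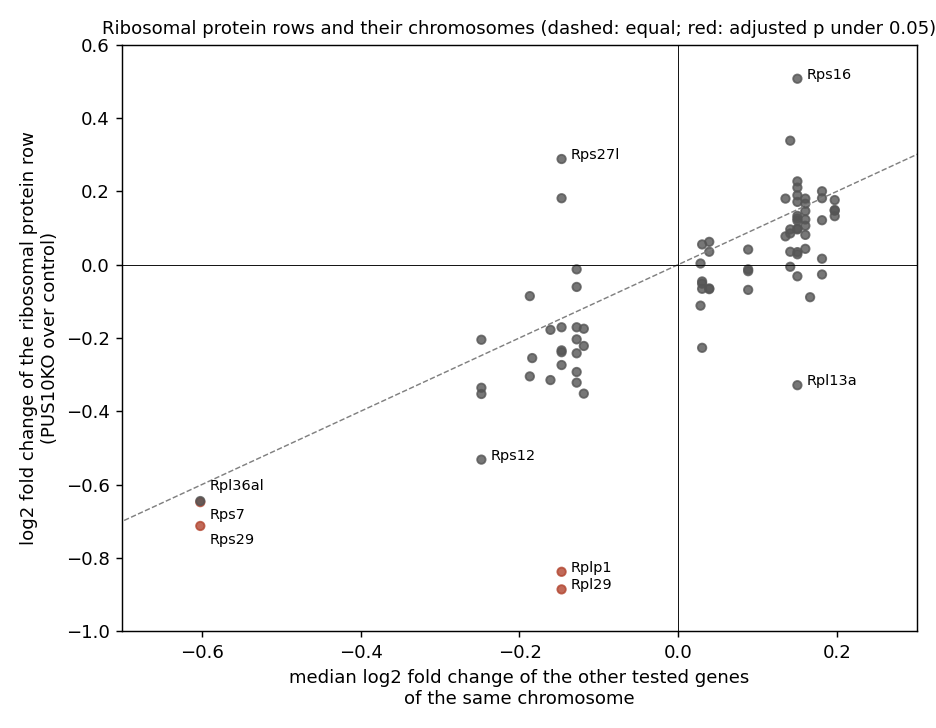
Log2 fold change of each member (vertical) against the median log2 fold change of the other tested genes on its chromosome (horizontal), with equality as a dashed line and called members in red. Points lie along the line (r = 0.776), Rps7 and Rps29 close to it at the lower left, and Rpl29 and Rplp1 far below it.

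Read against their chromosomes, the 4 called genes differed. Relative to the median of the other genes on chromosome 9 (-0.15), the log2 fold change was -0.74 for Rpl29 and -0.69 for Rplp1. Relative to that of chromosome 12 it was -0.11 for Rps29 and -0.045 for Rps7. The 10 nearest tested genes around each, 5 to a side, had a median of -0.20 at Rpl29, -0.15 at Rplp1, -0.47 at Rps29 and -0.59 at Rps7. Other members far from their chromosome's median were Rpl13a (-0.48 relative to it), Rps27l (0.43) and Rps16 (0.36), none of which was called. Rps27l lies on chromosome 9 as Rpl29 and Rplp1 do.

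Among genes that make or regulate ribosomes, few were called, and directions differed between lists. Rack1 and Fau, ribosomal proteins with other symbols, had 0 calls by edgeR, DESeq2 and limma voom, with Fau at an unadjusted p of 0.0412. Rack1 had 2899 ± 298 CPM in PUS10KO and 2866 ± 469 CPM in control (log2 fold change 0.02, edgeR adjusted p = 0.965), and Fau had 217 ± 17.3 CPM in PUS10KO and 267 ± 32.1 CPM in control (-0.30, adjusted p = 0.17, and 0.024 with the block). Of 19 other mRNAs known to carry the tract, 2 were called (10.5%, where 13.0% of all genes were), both lower in PUS10KO: the helicase gene Eif4a2 (-0.50, adjusted p = 0.0238) and the intermediate filament gene Vim (-0.55, adjusted p = 0.0254). Their list median was 0.025.

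Genes that act before the ribosome is complete gave 1 call, in RNA polymerase I transcription. The 68 ribosomal subunit assembly factors had a median of 0.147, 53 of them positive where 6070 of all 11909 genes were, with 0 called by edgeR, DESeq2 or limma voom, 4 at an unadjusted p under 0.05, and 18 higher and 3 lower with the block. The 14 core proteins of the snoRNPs, which modify ribosomal RNA, had a median of 0.298, with 0 called by edgeR, DESeq2 or limma voom, 1 at an unadjusted p under 0.05, and 6 higher with the block. Over all 11909 genes, 3115 had an unadjusted p under 0.05 in edgeR, and the block called 19.1% higher and 19.9% lower. The most abundant members were close to equal. Nop56 had 344 ± 140 CPM in PUS10KO and 332 ± 123 CPM in control, and Ddx21, a helicase of ribosomal RNA synthesis, had 354 ± 183 CPM in PUS10KO and 368 ± 179 CPM in control. Of 15 RNA polymerase I genes 1 was called, Taf1b of the promoter selectivity factor, which fell by 0.93 on the log2 scale (adjusted p = 0.00475) and lies on chromosome 12. That is 6.67% of the list, where 13.0% of all genes were called.

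Of 37 translation initiation factors 4 were called, all lower in PUS10KO, with a list median of 0.054. That is 10.8%, where 7.11% of all genes were called lower and 13.0% in either direction. Eif2b2, of the exchange factor that recharges eIF2, had 27.4 ± 3.44 CPM in PUS10KO and 54.3 ± 5.80 CPM in control (log2 fold change -0.99, edgeR adjusted p = 0.00188). Eif5, which activates GTP hydrolysis at the start codon, had 175 ± 38.9 CPM in PUS10KO and 325 ± 63.9 CPM in control (-0.90, edgeR adjusted p = 0.0193). Both genes lie on chromosome 12. Of 20 elongation and termination factors 1 was called, Hbs1l, which acts on stalled ribosomes (-0.55, adjusted p = 0.0357; list median -0.033). Among 15 surveillance factors 1 was called, Edf1, a sensor of collided ribosomes, higher in PUS10KO (0.39, adjusted p = 0.036; list median -0.013).

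Regulators of ribosomal protein output gave calls in both directions. In the list of mTORC1, LARP1 and S6 kinase genes, 2 of 24 were higher and 1 lower in PUS10KO, 12.5% of the list and near the 13.0% of all genes. Rps6ka1, a kinase that phosphorylates ribosomal protein S6, had 10.2 ± 1.35 CPM in PUS10KO and 2.20 ± 0.80 CPM in control (log2 fold change 2.21, edgeR adjusted p = 0.00143). The arginine sensors differed in direction, Castor2 at 0.84 (adjusted p = 0.0314) and Castor1 at -0.64 (adjusted p = 0.0335). Of 10 genes of the MYC family 1 was called, Max, at -0.57 (adjusted p = 0.0477), and it too lies on chromosome 12.

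In the list of Mdm2 and p53 genes 3 of 11 were called, all higher in PUS10KO, with a median of 0.417. That is 27.3%, where 5.90% of all genes were called higher and 13.0% in either direction. Cdkn1a, the cell cycle inhibitor p21, had 145, 124, 106 and 86.8 CPM in PUS10KO libraries 1 to 4, against 61.1, 47.2, 54.5 and 39.1 CPM in control libraries 1 to 4 (log2 fold change 1.19, edgeR adjusted p = 0.00464). Ccng1 was at 0.87 (adjusted p = 0.0128) and Zmat3 at 0.68 (adjusted p = 0.044). All 3 are targets of p53, and their groups did not overlap. Beside them, the 20 proliferation genes had a median of 0.178, with 0 called by edgeR, DESeq2 or limma voom and 0 at an unadjusted p under 0.05. Top2a was at 761 ± 236 CPM in PUS10KO and 685 ± 317 CPM in control.

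The ribosomal proteins of mitochondria, encoded in the nucleus, also gave few calls. Of 78 tested, 1 was called higher and 0 lower in PUS10KO, with 14 at an unadjusted p under 0.05. DESeq2 called 9 higher and 0 lower, limma voom 1 higher, and the block 18 higher and 2 lower. Of all 11909 genes, 3115 had an unadjusted p under 0.05 in edgeR. Over all genes DESeq2 called 1083 higher and 1232 lower, and limma voom 716 higher and 825 lower. The 1 edgeR call is 1.28% of the list, where 13.0% of all genes were called, and the block called 25.6% of the list and 39.0% of all genes. In 11 of them the PUS10KO values lay wholly above the control values, and in 0 wholly below, where 9.70% of all genes lay wholly above and 10.6% wholly below. Mrpl22, the called gene, had 38.5, 41.5, 34.6 and 32.6 CPM in PUS10KO libraries 1 to 4, against 24.4, 24.5, 21.5 and 22.4 CPM in control libraries 1 to 4 (log2 fold change 0.67, edgeR adjusted p = 0.0076). The list median was 0.093, against -0.013 in the cytosolic set, and the difference between the lists was not tested. Of 19 listed host genes of small nucleolar RNAs only Snhg4 was tested (0.11, adjusted p = 0.817).

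Several calls in these lists rested on all 8 libraries. Those of Castor2 and Edf1 were lost in all 8 fits without 1 library, with adjusted p up to 0.107 for both. Eif4a2, Hbs1l, Max and Zmat3 lost theirs in 7 of the 8 fits, Vim and Castor1 in 6, and Eif5 in the fit without PUS10KO 3 (adjusted p = 0.0626). The calls of Eif2b2, Taf1b, Rps6ka1, Cdkn1a, Ccng1 and Mrpl22 were kept in all 8.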

How the data were processed

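Gene counts of 8 RNA sequencing libraries were analysed, 4 PUS10KO and 4 control, grouped by their titles. Per the labels' protocols, libraries were made from total RNA with a stranded kit and read from both ends. The authors deposited raw counts per gene for each library, and STAR 2.7.8a, DESeq2 and the mm10 build appear in the submitters' processing notes. Read counter, strand setting and annotation were not given in the sources used here. Overlapping genes therefore cannot be told apart. The authors also deposited a normalized table, on a log2 scale by its values (5.13 to 18.12), used only as an alternative.

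Counts were tested in R 4.3.3 with edgeR 4.0.16 (filterByExpr, TMM, robust quasi-likelihood, genotype as the only term) with Benjamini-Hochberg adjustment over 11909 genes and a threshold of 0.05. DESeq2 1.42.0 and limma 3.58.1 (voom) were alternatives, with other scalings, filters (minimum count 50) and fits without 1 library. The test was tested on simulated data. Total counts of 17561114 to 24563499 give low counting error at most members; all pairs within a genotype differed by more than sampling noise (chi-square per degree of freedom at least 17.93).

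Each genotype has libraries numbered 1 to 4. After removal of the genotype means, same-numbered libraries correlated over genes (r = 0.661, 0.692, 0.606 and 0.667). Each PUS10KO library matched the control library of its own number best, narrowly for number 3 (0.606, against 0.562 for the next). Same-numbered libraries were treated as pairs in the replicate block and the within-number differences, and not in the main fit. The pairing comes from the counts. GENCODE M21, on GRCm38 (mm10), supplied positions and lengths, with 12048 rows matched on the symbol and 150 on a synonym. The members and all gene lists were chosen with earlier results of these data known. Genes named were every called member, the 5 largest changes each way, the 5 highest and lowest levels, the small structural groups, the 5 genes most alike, and in each other list up to 3 called genes or the 2 most abundant. Rps14, Rps28, Rpl13a, Top2a and the members with the closest correlation were also named after their values were seen. Some genes are not reported here.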

Additional observations from a re-analysis of the deposited data

Results flagged for a closer look

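In each genotype, 80 of the 83 members were checked for 1 library far from the other 3. This picked out 5 of 160 groups of 4 libraries (3.12%), where chance picks about 1 in 20. All 5 concern a library of number 1. Rpl7a, of the large subunit, was picked out in both genotypes, with 814 CPM in PUS10KO 1, against 907 to 910 CPM in the other PUS10KO libraries, and 624 CPM in control 1, against 972 to 994 CPM in the other control libraries. Rpl18 had 462 CPM in PUS10KO 1, against 603 to 623 CPM in the other PUS10KO libraries. The called gene Rps29 had 39.7 CPM in PUS10KO 1, against 70.4 to 76.4 CPM in the other PUS10KO libraries. Only Rpl36al stood high, at 2.87 CPM in control 1, against 2.16 to 2.25 CPM in the other control libraries.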

How the results depend on the processing

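Between 0 members called higher and 4 called lower, the counts changed most with the replicate block of library numbers, which called 4 higher and 18 lower, and which over all genes called 2273 higher and 2368 lower. Library totals as the only scaling called 2 lower members and gave a median member log2 fold change of 0.089. DESeq2 called 1083 genes higher over the table, and the same 4 members. Without 1 library in turn, 2 to 4 members were called lower, all genes called lower numbered 520 to 728, the members' median ran from -0.072 to 0.108, and the PUS10KO to control ratio of the members' share of counts ran from 0.941 to 1.11; on the TMM-scaled total the ratio was 0.954. The cause of these shifts was not tested; a fit without 1 library also has fewer samples. Of the values of single members under the alternatives, 1218 kept their call or stayed uncalled. Another 18 gained a call, all with the block, and 12 lost one. The last 4, the called genes set against their chromosome, moved in size. Uncalled members near 0 could change sign, as Rpl7a did, at -0.013 in the main fit and 0.011 with the block. No value turned sign past the threshold. The settings relative to the chromosome and on the authors' deposited normalized values (member median 0.004) were chosen after seeing the data.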
